A study of Mus musculus with 6 samples.

Results

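Cathepsins are the proteases of lysosomes and endosomes. The 10 genes Ctsa, Ctsb, Ctsc, Ctsd, Ctse, Ctsh, Ctsk, Ctsl, Ctss and Ctsz are described here in cells sorted as macrophages from mouse liver tumours. They were taken by gene name, and all 10 were found among the 55401 rows of the deposited count table. Their RNA was measured in F4/80+ cells, sorted for the surface protein that Adgre1 encodes and that marks mouse macrophages. The cells came from tumours formed by Hepa 1-6, a hepatoma line of the mouse, which had been placed in the liver 14 days earlier. In the control group (3 libraries) the labels give the genotype as wild-type control. In the Sms_OE group (3 libraries) the injected hepatoma cells had been made to overexpress Sms, the gene of spermine synthase, with a lentivirus. No further treatment was given in either group. The manipulation was in the tumour cells, so the sorted host cells of both groups are not stated to carry it, and no source used here gives the strain, age or sex of the mice or the control vector. Whether the 3 replicates of a group were separate mice is not stated, so each p-value reflects only how far these samples spread, which may be technical.

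Most cathepsins are cysteine proteases (Ctsb, Ctsc, Ctsh, Ctsk, Ctsl, Ctss, Ctsz), Ctsd and Ctse are aspartic proteases, and Ctsa is a serine carboxypeptidase. They are made as inactive proenzymes, are carried to the lysosome largely by mannose 6-phosphate receptors, are activated there by cleavage, and are held in check by cystatins, stefins and some serpins. In macrophages and dendritic cells they degrade ingested and worn-out proteins, and Ctss trims the invariant chain (Cd74) from class II molecules before peptide loading. Cathepsins of tumour-associated macrophages are also secreted and cleave matrix proteins.

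The libraries held 49833764 to 58154006 estimated counts, and 22713 to 23699 genes had a count. Macrophage markers were visible in the RNA: Adgre1 stood at 334 to 660 CPM (counts scaled to library size with TMM factors) in every library. Csf1r, the receptor for macrophage colony-stimulating factor, stood at 661 to 837 CPM. RNA of other leukocytes was present too, so the values are not those of macrophages alone. Neutrophil markers summed to 3812 to 6615 CPM in control and 2725 to 4681 CPM in Sms_OE libraries. T and natural killer cell markers summed to 322 to 491 CPM in control and 384 to 522 CPM in Sms_OE libraries. Hepatocyte markers summed to 776 to 1019 CPM in control and 392 to 605 CPM in Sms_OE libraries. Of 9 hepatoma markers, Igf2 and Dlk1 were at 0 throughout and 7 were tested, with sums of 122 to 157 CPM in control and 110 to 152 CPM in Sms_OE libraries. Gpc3 (7.07 to 8.87 CPM in control and 1.99 to 4.82 in Sms_OE) and Rhox5 (8.54 to 11.2 and 0.401 to 1.25) fell, and 5, among them Afp at 46.2 to 68.3 CPM, did not pass. Sms itself, whose overexpression was in the injected cells, had 26.9 ± 1.3 CPM in control and 33.1 ± 0.15 in Sms_OE libraries (SD, n = 3 each; log2 fold change 0.30, adjusted p 0.0382 by edgeR's quasi-likelihood test), a call lost in 11 of 20 alternative settings, among them each of the 6 that left out a library. Sms_OE replicates 2 and 3 stood apart in haemoglobin transcripts, at 0.485% and 0.512% of counts against 0.0044% to 0.0225% in the other 4 libraries. Mitochondrially encoded transcripts took 5.97 ± 1.1% of counts in control and 2.57 ± 0.50% in Sms_OE libraries (SD, n = 3 each). The part of either difference in the cathepsin values was not tested. Log2 fold changes are Sms_OE minus control, each with its standard error, and p-values were adjusted over the 18277 genes tested (Benjamini-Hochberg, threshold 0.05).

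In F4/80+ cells of Sms_OE tumours, 1 of the 10 cathepsin genes rose (Ctsl), 2 fell (Ctsz and Ctss) and 7 did not pass the test. Among all genes tested, 26.9% passed, 12.5% upward and 14.3% downward, so the members' share called was near that of genes at large. The members' median log2 fold change was -0.16, against -5.98e-04 over all genes. Values of 5 members did not overlap between the groups, 1 of them higher and 4 lower in Sms_OE, and 44.1% of all genes had non-overlapping groups (20.8% higher and 23.3% lower). In bulk libraries, fewer cells of a type and less RNA per cell cannot be told apart.

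**Figure D1:**
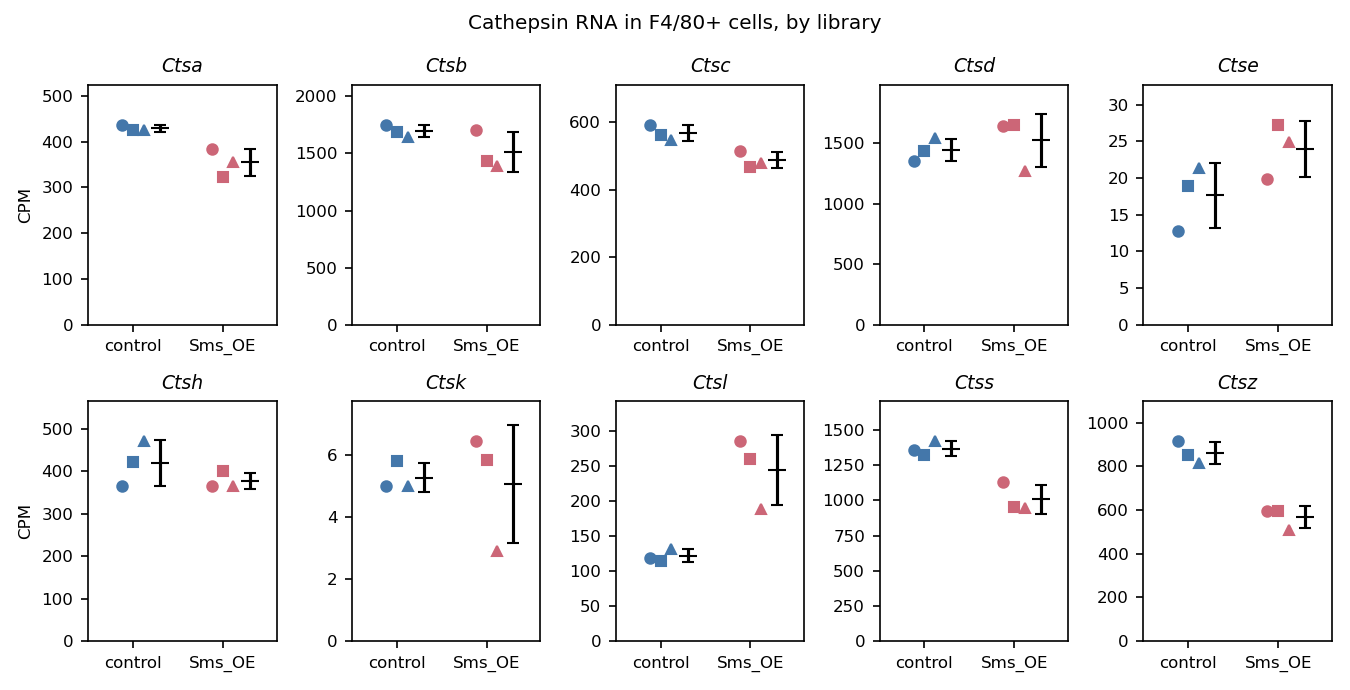
Level of each of the 10 cathepsin genes in CPM (linear axis from 0, set for each gene) in the 3 control and 3 Sms_OE libraries, with 1 symbol per replicate number and bars for mean ± SD. Ctsl is higher in every Sms_OE library than in any control library, whereas Ctsz, Ctss, Ctsa and Ctsc are lower.

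The sequence before the start site is shown for Ctss and Ctsz, the genes that fell, with motifs of transcription factors of lysosomal and macrophage genes marked. RefSeq windows of 250 bases before an annotated start (GRCm38.p6) were found for 7 of the 10 genes, 8 windows in all; Ctsb, Ctse and Ctsh have no entry. The windows of Ctss and Ctsz end directly before the GENCODE gene model and are shown 5′ to 3′ in the direction of the gene. The Ctss window is chr3:95526536-95526785 on the plus strand, and the Ctsz window is chr2:174439040-174439289 on the minus strand. Capitals mark matches to 6 motifs searched on both strands: the E-box core CACGTG and its longer form TCACGTGA, the interferon response core GAAANNGAAA, the STAT palindrome TTCNNNGAA, the AP-1 element TGANTCA, and the ETS core GAGGAA of PU.1 type. The longer E-box contains the shorter one.
Ctss: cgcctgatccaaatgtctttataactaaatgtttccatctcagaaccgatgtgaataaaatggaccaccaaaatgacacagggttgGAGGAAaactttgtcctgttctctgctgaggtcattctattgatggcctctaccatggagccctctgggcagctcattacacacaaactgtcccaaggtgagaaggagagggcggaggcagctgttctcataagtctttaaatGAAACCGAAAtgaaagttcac
Ctsz: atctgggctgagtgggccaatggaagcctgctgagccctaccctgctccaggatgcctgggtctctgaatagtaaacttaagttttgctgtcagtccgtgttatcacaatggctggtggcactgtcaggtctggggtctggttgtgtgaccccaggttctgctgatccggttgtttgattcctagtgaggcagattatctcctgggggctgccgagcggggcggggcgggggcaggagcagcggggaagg
The Ctss window held GAAACCGAAA at bases -21 to -12 from the start, a match to the interferon response core that 2.98% of all 32851 windows contain, and GAGGAA at -164 to -159, which 23.3% contain. The Ctsz window held none of the 6 motifs. The RefSeq start of Ctsl at 64370520 is an exon boundary inside the GENCODE model, so its window lay wholly within the gene and is not shown. Among the other members, TCACGTGA, present in 0.785% of all windows, was found in windows of Ctsa and Ctsd, but both of those windows overlapped exons of the gene. A match is a description of the letters only.

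Ctsl, the gene of a broad endopeptidase of lysosomes (ENSMUSG00000021477, chromosome 13, 64359337 to 64370890, minus strand, GRCm38), was the member that rose. It stood at 118, 115 and 132 CPM in the control libraries and at 285, 259 and 189 CPM in the Sms_OE libraries. Every Sms_OE library was above every control library, and the lowest of them was replicate 3. The log2 fold change was 1.01 ± 0.14 (95% interval 0.69 to 1.32), a 2.01-fold rise (edgeR quasi-likelihood test, adjusted p 0.00115). Only 2.49% of tested genes had a smaller p. The rise passed the threshold in all 20 alternative settings, between 0.80 and 1.22 on the log2 scale. An antisense model overlapping Ctsl, Gm47123, had 0 counts in every library.

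Ctss, the gene of a cysteine protease of antigen-presenting cells that stays active at neutral pH (ENSMUSG00000038642, chromosome 3, 95526786 to 95556403, plus strand), fell. Its values were 1359, 1320 and 1422 CPM in control and 1128, 952 and 946 CPM in Sms_OE libraries, with no overlap. The log2 fold change was -0.44 ± 0.11 (95% interval -0.68 to -0.20), which is 26.2% lower in Sms_OE (adjusted p 0.0137 by edgeR's test). The call passed in 16 of 20 alternatives. It was lost with per-library offsets for transcript length and GC (-0.22, adjusted p 0.139) or for the longest transcript (-0.17, adjusted p 0.268). It was also lost without Sms_OE replicate 3 (-0.40, adjusted p 0.0523) and without both haemoglobin-rich libraries (-0.28, adjusted p 0.211).

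Ctsz, the gene of a carboxypeptidase that also binds integrins outside the cell (ENSMUSG00000016256, chromosome 2, 174427493 to 174439039, minus strand), fell most among the members. It stood at 916, 854 and 817 CPM in control and at 597, 595 and 510 CPM in Sms_OE libraries. The groups were well apart, and the highest Sms_OE value lay below the lowest control value. The log2 fold change was -0.60 ± 0.10 (95% interval -0.83 to -0.37), 34.2% lower in Sms_OE (adjusted p 0.00267 by edgeR's test). The fall passed in all 20 alternatives, between -0.75 and -0.49. Nelfcd, a gene on the opposite strand with a mean of 1187 counts, overlaps Ctsz, and no source used here states whether counting used the strand, so reads of such antisense pairs may not have been separated.

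**Figure D2:**
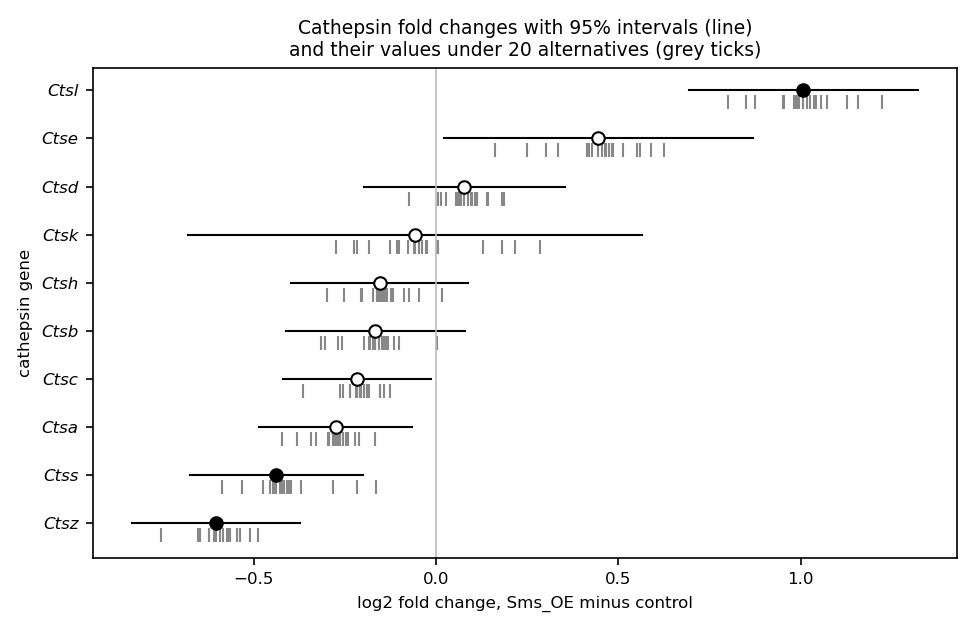
Log2 fold change (Sms_OE minus control) of the 10 cathepsin genes with 95% intervals from edgeR's quasi-likelihood fit. Ctsl lies at 1.01 to the right of 0, Ctsz and Ctss at -0.60 and -0.44 to the left, and the intervals of Ctsb, Ctsd, Ctsh and Ctsk include 0.

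Ctsc and Ctsa had groups that did not overlap but missed the threshold. Ctsc, the dipeptidyl peptidase that activates the serine proteases of granules (chromosome 7, 88278085 to 88310888, plus strand), had 593, 561 and 546 CPM in control and 515, 468 and 479 CPM in Sms_OE libraries. For Ctsc the log2 fold change was -0.22 ± 0.09 (95% interval -0.42 to -0.015; adjusted p 0.106 by edgeR's test). Ctsa, which shields the lysosomal sialidase and galactosidase in a complex (chromosome 2, 164832873 to 164841032, plus strand), had 437, 424 and 426 CPM in control and 384, 324 and 356 CPM in Sms_OE libraries. Its log2 fold change was -0.28 ± 0.09 (95% interval -0.48 to -0.067), and its adjusted p by edgeR's test was 0.0528, with 9 of 20 alternatives past the threshold, among them the one without Sms_OE replicate 1 (adjusted p 0.0299). Ctsa overlaps the antisense gene Pltp, whose mean was 4230 counts.

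Ctsb, Ctsd and Ctsh had overlapping groups and did not pass the test. Ctsb, an endopeptidase with an added exopeptidase activity (chromosome 14, 63122462 to 63145923, plus strand), had 1754, 1688 and 1649 CPM in control and 1709, 1435 and 1391 CPM in Sms_OE libraries, and the groups overlapped through Sms_OE replicate 1. The estimate for Ctsb was a log2 fold change of -0.17 ± 0.11 (95% interval -0.41 to 0.078; adjusted p 0.301 by edgeR's test). Ctsd, the main aspartic protease of lysosomes (chromosome 7, 142375911 to 142388038, minus strand), had 1354, 1439 and 1539 CPM in control and 1644, 1655 and 1272 CPM in Sms_OE libraries. Sms_OE replicate 3 was the lowest of the 6 Ctsd values and replicates 1 and 2 were the highest. The Ctsd log2 fold change was 0.08 ± 0.12 (95% interval -0.20 to 0.35; adjusted p 0.695 by edgeR's test). Ctsh, an aminopeptidase (chromosome 9, 90054152 to 90076089, plus strand), had 365, 422 and 471 CPM in control and 366, 400 and 365 CPM in Sms_OE libraries, within a log2 interval of -0.40 to 0.088 (estimate -0.15 ± 0.11; adjusted p 0.336 by edgeR's test).

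The low-level members were Ctse and Ctsk. Ctse, an endosomal aspartic protease (chromosome 1, 131638306 to 131675505, plus strand), had 12.7, 18.9 and 21.3 CPM in control and 19.8, 27.3 and 24.9 CPM in Sms_OE libraries. Its log2 fold change was 0.44 ± 0.19 (95% interval 0.021 to 0.87; adjusted p 0.113 by edgeR's test), and it passed in 2 of 20 alternatives. Ctsk, the collagen-degrading protease of osteoclasts (chromosome 3, 95499256 to 95509362, plus strand), had 4.99, 5.82 and 5.00 CPM in control and 6.44, 5.84 and 2.90 CPM in Sms_OE libraries, so the highest and the lowest value were both in the Sms_OE group. For Ctsk the estimate was -0.06 ± 0.28 (95% interval -0.68 to 0.56; adjusted p 0.904 by edgeR's test). Ctsk and Ctss are neighbours on chromosome 3, with 17423 bases between them.

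To compare levels between genes, CPM were divided by the length of each gene's principal transcript (CPM per kb). Ctss came first in both groups, at 1009 ± 38 CPM per kb in control and 744 ± 76 in Sms_OE libraries (SD, n = 3 each), ranks 75 and 90 among all genes. Ctsd followed with 679 ± 43 in control and 716 ± 103 in Sms_OE, and the control values of Ctsd did not reach those of Ctss. Ctsz came next, with 599 ± 35 and 394 ± 34 CPM per kb. In the Sms_OE group the ranges of Ctss (698 to 832) and Ctsd (598 to 778) overlapped.

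Ctsb, Ctsh, Ctsc and Ctsa filled the middle of the order, from 358 CPM per kb (Ctsb) to 118 CPM per kb (Ctsa) in control and from 319 to 97.2 in Sms_OE. Ctsh and Ctsc overlapped in control libraries (226 to 291 against 219 to 238 CPM per kb). Ctsl moved from 61.7 ± 4.6 CPM per kb in control to 124 ± 25 in Sms_OE (SD, n = 3 each), from place 8 to place 7 of the members. With the longest annotated transcript as its length, Ctsl stayed in place 8 in both groups. Ctse (8.29 and 11.3 CPM per kb) and Ctsk (3.48 and 3.35) came last.

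The summed CPM of the 10 members was 6916, 6849 and 7028 in control and 6655, 6121 and 5535 in Sms_OE libraries, with no overlap between the groups. As a share of all counts the members overlapped, at 0.678 ± 0.030% in control and 0.625 ± 0.068% in Sms_OE (SD, n = 3 each). Within the summed CPM per kb, Ctss took 30.4 ± 0.58% in control and 26.2 ± 1.5% in Sms_OE, and Ctsz took 18.0 ± 1.3% and 13.9 ± 0.48%. Ctsd took 20.4 ± 1.0% and 25.2 ± 1.9%, and Ctsl took 1.86 ± 0.10% and 4.34 ± 0.53%. The group values of these 4 shares did not overlap. These sums and shares are values with no test, and each share moves with the others.

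**Figure D3:**
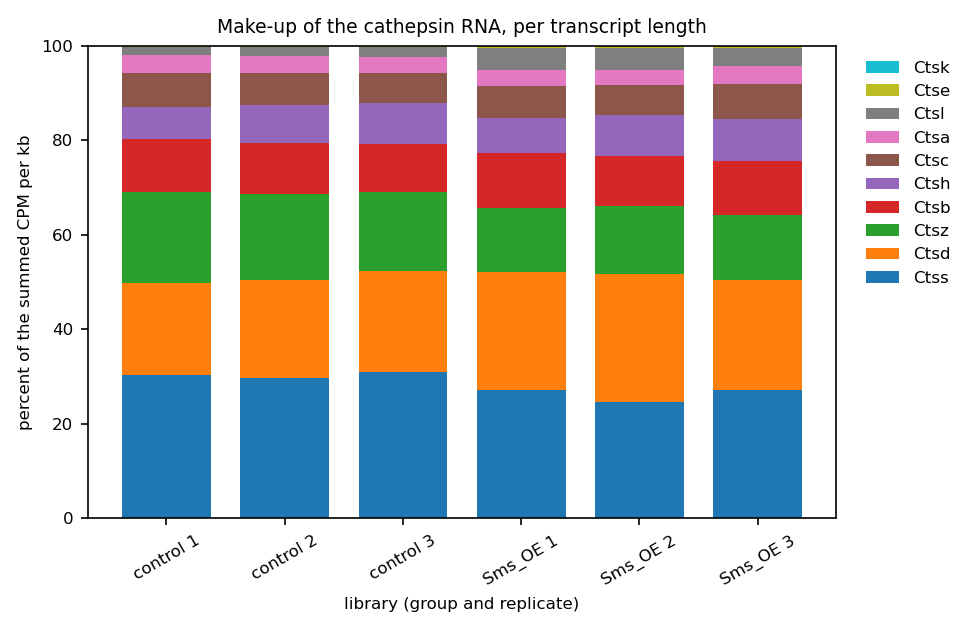
Share of the summed CPM per kb of the 10 cathepsin genes taken by each gene in the 6 libraries, in percent. The Ctsl share is larger and the Ctss and Ctsz shares smaller in every Sms_OE library than in any control library.

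Ratios of counts within a library do not depend on the scaling between libraries. They were not adjusted for transcript length or GC, and with offsets for these Ctss lost its call while Ctsz kept it. The log2 ratio of Ctsl to Ctsb was -3.89, -3.88 and -3.65 in control and -2.58, -2.47 and -2.88 in Sms_OE libraries. The log2 ratio of Ctsl to Ctss was -3.49 ± 0.053 in control and -2.06 ± 0.23 in Sms_OE (SD, n = 3 each). The groups did not overlap for either ratio. The log2 ratio of Ctsz to Ctsb was -0.98 ± 0.038 and -1.41 ± 0.13, and that of Ctss to Ctsb was -0.31 ± 0.086 and -0.58 ± 0.023, again with no overlap. The ratios of Ctsz to Ctss and of Ctsd to Ctsb overlapped between the groups.

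**Figure D4:**
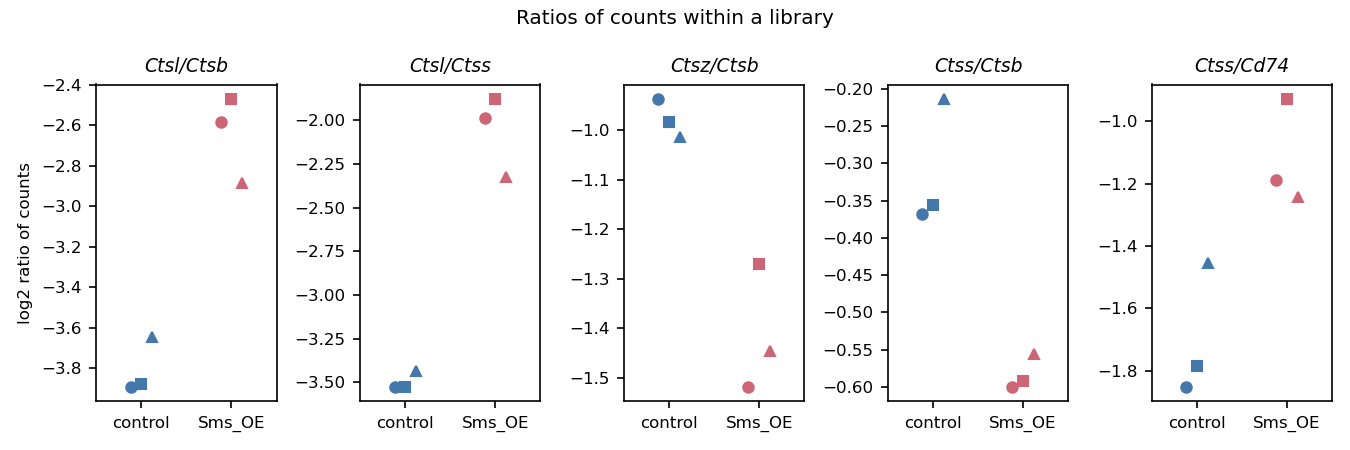
Log2 ratio of counts within each library for 5 pairs of genes, 1 point per library and 1 symbol per replicate number. Ctsl to Ctsb lies at -3.89 to -3.65 in control and -2.88 to -2.47 in Sms_OE libraries, and none of the 5 pairs has overlapping groups.

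By the root mean square difference of centred log2 CPM over the 6 libraries, the members closest in pattern were Ctsa and Ctsc (0.0519), followed by Ctsb with Ctsc (0.0612). Ctsl had the most distant nearest member, Ctse, at 0.426. Among 8088 genes with a mean of at least 10 CPM, those nearest to Ctsl were Chrm3 (0.113), Slc44a1 (0.120) and Fpr1 (0.138). Those nearest to Ctsz were Sdad1 (0.0447), Rrp8 (0.0450) and Vdac1 (0.0469).

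Of the other 12 cathepsin genes listed, 3 passed the low-count filter, Ctsf, Ctso and Ctsw, and 0 passed edgeR's quasi-likelihood test. Ctsg, the gene of cathepsin G, is not in this list. It was counted with the serine proteases that Ctsc activates, given below, and it rose (log2 fold change 2.06, adjusted p 0.0103 by edgeR's test). At an unadjusted p under 0.05, 1 of Ctsf, Ctso and Ctsw was higher. It passed in 5 of 20 alternatives: DESeq2, limma-voom, offsets of either kind, and Sms_OE replicate 2 left out. That gene was Ctsw, a cathepsin of natural killer and T cells, with 30.9, 35.4 and 40.8 CPM in control and 53.7, 35.6 and 55.5 CPM in Sms_OE libraries (log2 fold change 0.44 ± 0.17; adjusted p 0.0808 by edgeR's test). Of 10 T and natural killer cell markers, 1 rose and 9 did not pass, and their part in the Ctsw values was not tested. Cts3, Cts6, Cts7, Cts8, Ctsm, Ctsq, Ctsr and Ctsll3 were at 0 in every library. Ctso, with 26.2 ± 3.3 and 26.0 ± 2.4 CPM, overlapped between the groups, as did Ctsf, with 1.44 ± 0.40 and 2.30 ± 0.76 CPM (SD, n = 3 each).

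Among endogenous inhibitors, 1 of 9 tested cystatins and stefins passed, downward, and the list's median log2 fold change was 0.14. It was Cst3, cystatin C, the secreted inhibitor of cysteine cathepsins, with 572, 524 and 585 CPM in control and 412, 456 and 405 CPM in Sms_OE libraries. Its log2 fold change was -0.40 ± 0.10 (adjusted p 0.0127 by edgeR's test), and it was lost in 3 of 20 alternatives: offsets for length and GC (-0.20, adjusted p 0.114), offsets for the longest transcript (-0.20, adjusted p 0.123) and both haemoglobin-rich libraries left out (-0.45, adjusted p 0.0694). With either kind of offsets the list turned to 2 higher and 0 lower by edgeR's test (medians 0.47 and 0.49), so its direction depended on the processing. The log2 ratio of Ctsl to Cst3 was -2.21 ± 0.063 in control and -0.82 ± 0.29 in Sms_OE libraries (SD, n = 3 each), with no overlap, whereas the ratio of Ctss to Cst3 overlapped. The stefin genes of the Stfa family are near-identical copies, and their counts are uncertain.

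Of 8 serpins and other inhibitors of cathepsins, 2 rose and 3 fell, with a median of -0.26. Serpina3g, a serpin that inhibits cysteine cathepsins inside cells, had 394, 394 and 429 CPM in control and 149, 153 and 146 CPM in Sms_OE libraries. This was a 2.72-fold fall with tight groups (log2 fold change -1.44 ± 0.09; adjusted p 4.39e-05 by edgeR's test). Serpina3f (-1.15) and Serpinb9, the granzyme B inhibitor (-0.56), also fell. Ctla2a (0.60) and Ctla2b (0.70), whose products resemble cathepsin propeptides, rose. The Serpina3 and Ctla2 genes have near-identical copies, so the split of reads among copies is uncertain. The calls of Ctla2a and Ctla2b were each lost in 6 of 20 alternatives: scaling by macrophage markers, both haemoglobin-rich libraries left out, and control replicate 1, control replicate 2, Sms_OE replicate 1 or Sms_OE replicate 3 left out. In each of these 6 the list had no higher call.

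Of 5 genes listed with processing of proenzymes and the Ctsa complex, 4 did not pass. The 1 that fell was the saposin precursor, not a processing enzyme. Psap, the precursor of the saposins, which assist lysosomal lipid breakdown, stood at 5817, 5363 and 4730 CPM in control and at 3304, 2858 and 2767 CPM in Sms_OE libraries. Psap changed by a log2 fold of -0.83 ± 0.12 (adjusted p 0.00146 by edgeR's test). The Psap call was lost only without both haemoglobin-rich libraries. Lgmn, the asparaginyl endopeptidase that processes several cathepsins, had a log2 fold change of 0.01, and Neu1 and Glb1, the partners of Ctsa, had -0.09 and -0.01, none past the threshold.

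Of 14 genes for mannose 6-phosphate tagging and sorting to lysosomes, 6 rose and 2 fell, with a median of 0.19. Igf2r, the larger mannose 6-phosphate receptor, had 63.1, 59.5 and 58.4 CPM in control and 112, 96.3 and 104 CPM in Sms_OE libraries (log2 fold change 0.78 ± 0.09; adjusted p 4.02e-04 by edgeR's test). The sorting receptors Sort1 (0.59) and Sorl1 (0.55) and the proprotein convertase Furin (0.52) rose as well, with the Sorl1 call lost in 2 and the Furin call in 4 of 20 alternatives. With offsets for length and GC the list gave 2 higher and 3 lower, and with scaling by macrophage markers 3 and 3, so its upward split depended on the processing.

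Of 9 regulators of lysosomal genes, 2 fell and 7 did not pass. The first that fell was Tfec, a macrophage member of the TFEB family, with 41.2 ± 0.44 CPM in control and 22.8 ± 3.3 in Sms_OE (SD, n = 3 each; -0.85 ± 0.12, adjusted p 0.00108 by edgeR's test), and the other was Lamtor1 (-0.45), part of the complex that anchors mTORC1 to lysosomes, whose call was lost in 3 of 20 alternatives. Tfeb (0.04), Tfe3 (0.20) and Mitf (0.14) did not pass.

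Most genes of the invariant chain and class II list fell. Of 11 listed, 10 fell and 1 did not pass, with a median log2 fold change of -1.08. Cd74, the invariant chain, had 4903, 4551 and 3895 CPM in control and 2568, 1811 and 2236 CPM in Sms_OE libraries (-1.01 ± 0.15; adjusted p 0.00136 by edgeR's test), past the threshold in all 20 alternatives. H2-DMb1, a subunit of the peptide-loading catalyst, changed by -1.45 ± 0.11 (adjusted p 8.87e-05 by edgeR's test), H2-DMa by -1.21 and the class II transactivator gene Ciita by -1.23. The log2 ratio of Ctss to Cd74 was higher in Sms_OE (-1.12 ± 0.17) than in control libraries (-1.70 ± 0.21), with no overlap.

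Dendritic cell markers moved beside this group and beside Ctss and Ctsz: of 10 markers, 6 fell, 1 rose and 3 did not pass. Their sum ranged from 788 to 974 CPM in control and from 589 to 647 CPM in Sms_OE libraries. Itgax made up most of each sum, at 658 to 817 CPM in control and 507 to 556 CPM in Sms_OE libraries. Flt3 (0.15), Xcr1 (0.10) and Zbtb46 (-0.81) were those that did not pass. None of the 10 was at 0. Kupffer cell markers, those of the resident liver macrophage, moved the other way: of 9, 8 rose and 1 did not pass, and their sum was 312 to 325 CPM in control and 532 to 653 CPM in Sms_OE libraries, beside the rise of Ctsl. Of 15 general macrophage markers, 4 rose and 4 fell, and their summed ranges were 7894 to 8065 and 7859 to 9138 CPM. Of 8 endothelial markers, 5 fell and 1 rose (sums 156 to 177 and 124 to 160 CPM), and of 8 stellate cell and fibroblast markers tested, 3 rose and 5 did not pass (sums 78.1 to 96.8 and 110 to 151 CPM). Of 8 monocyte markers, 2 rose and 2 fell, and of 7 B and plasma cell markers 0 passed. Hepatocyte markers, 11 of 12 of which fell, and hepatoma markers are given above. The part of these cell types in the cathepsin values was not tested.

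Of 10 zymogens that Ctsc activates, the serine proteases of neutrophils, mast cells and lymphocytes, 3 rose and 7 did not pass. They were Ctsg (cathepsin G, 4.16-fold), Elane (1.17 to 3.34 CPM, 2.85-fold) and Prtn3 (3.29 to 6.95 CPM, 2.11-fold). All 3 encode proteases of immature neutrophils and were at low levels. Without control replicate 2, Elane and Prtn3 no longer passed. Gzma and Gzmb, granzymes A and B, did not pass (-0.15 and 0.09). Neutrophil markers summed to 3812 to 6615 CPM in control and 2725 to 4681 CPM in Sms_OE libraries. Past the threshold were 2 of 10 markers, both higher: Mpo, and Elane, which is also among the zymogens above. The median log2 fold change of the 10 was -0.40, with 7 below 0.

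The rest of the lysosome gave mixed counts. Of 33 other lysosomal hydrolases, 2 rose and 5 fell with a median of -0.05, close to that of all genes, and Hyal1, a hyaluronidase at 0.84 and 2.33 CPM (1.47), and Gla, alpha-galactosidase A (0.75), were those that rose. Hexa, a hexosaminidase subunit (-0.49), and Dnase2a, the lysosomal DNase (-0.67), were among those that fell. Of 13 lysosomal membrane proteins, 2 rose and 4 fell with a median of -0.15, but without control replicate 2 the list gave 1 higher and 0 lower by edgeR's test, and without control replicate 1 it gave 2 higher and 1 lower. With both haemoglobin-rich libraries left out it gave 0 calls (1 higher and 4 lower at an unadjusted p under 0.05), while DESeq2 on all libraries gave 2 higher and 4 lower and limma-voom 2 and 5. Npc1 (0.39) and Slc38a9 (0.42) were higher, while Npc2 (-0.36) and Cd68 (-0.35) were lower. The calls of Slc38a9 and Cd68 were each lost in 7 of 20 alternatives, 3 of them with 1 library left out, that of Npc1 in 4, and that of Npc2 in 2, including without control replicate 2. With scaling by macrophage markers, which lowered the median of all genes to -0.15, the other hydrolases gave 2 higher and 11 lower. The osteoclast-like list, which bears on Ctsk, gave 2 higher and 2 lower of 7 tested.

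**Figure D5:**
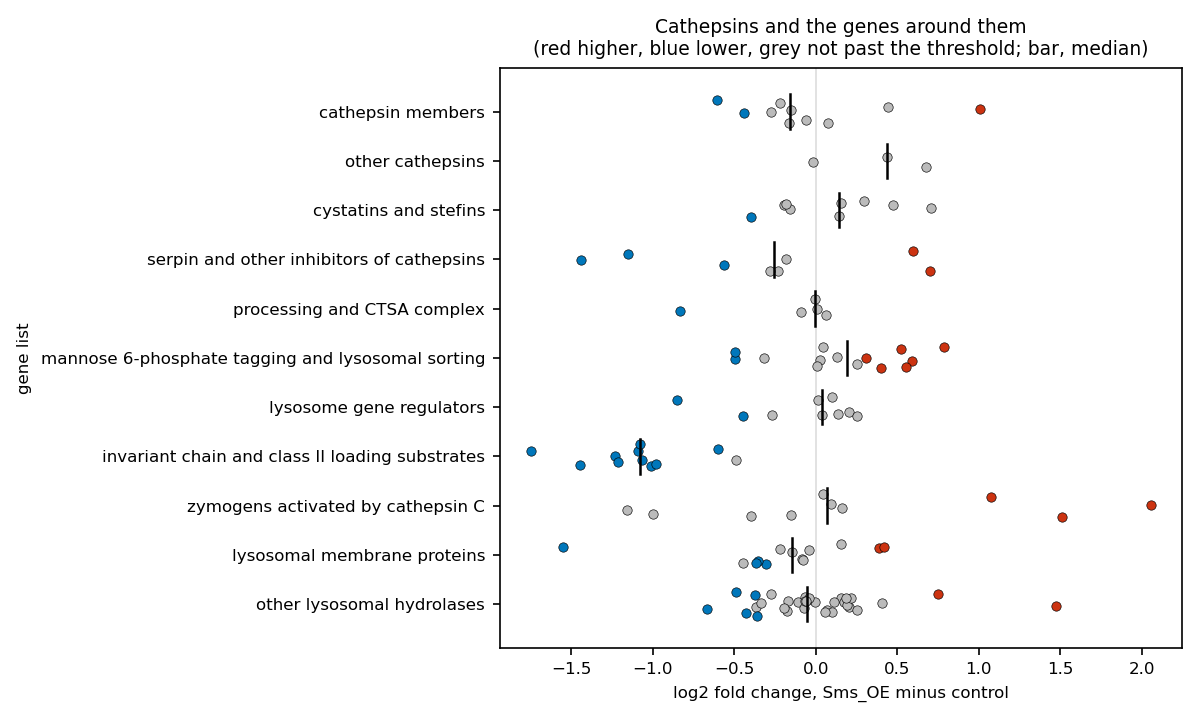
Log2 fold change (Sms_OE minus control) of the tested genes of each list, 1 point per gene with the list's median. All genes of the invariant chain and class II list lie to the left of 0, with a median of -1.08, while the 10 cathepsins lie on both sides with a median of -0.16.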

How the data were processed

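RNA of F4/80+ cells was made into 3 control and 3 Sms_OE libraries by oligo(dT) selection, with dUTP and UDG in the second-strand step, per the labels' protocols. The deposited table holds the authors' estimated counts per gene, not normalized and as whole numbers. The submitters' processing notes name HISAT2 2.2.1 and StringTie 2.1.6, and also cutadapt 1.9, FastQC 0.11.9 and DESeq2. No source used here gives the build, annotation or strand setting behind the counts.

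Groups and replicate numbers came from sample titles. Symbols and coordinates came from GENCODE M21 (GRCm38) by Ensembl identifier, for 55141 of 55401 rows; the unnamed rows took 0.0125% of counts or less in each library. The test was edgeR 4.0.16 in R 4.3.3: low-count filtering with filterByExpr on the groups, TMM scaling, glmQLFit with its robust option, glmQLFTest, and Benjamini-Hochberg adjustment over 18277 genes. Standard errors came from the F statistic. At these depths 1 CPM is at least 48.0 counts. Lengths for CPM per kb were those of the APPRIS principal transcript. The steps were tested on simulated data in which few genes changed, in random directions, which does not test the scaling used here.

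Named genes were all members, the other cathepsins past the filter, up to 4 called genes of each list by smallest p (the 2 of highest CPM where none passed), Sms, and the 3 genes nearest in pattern to the members with the largest rise and fall. Other genes named (Adgre1, Csf1r, Igf2, Dlk1, Gpc3, Rhox5, Afp, Cd74, Ctla2b, Lgmn, Neu1, Glb1, Tfeb, Tfe3, Mitf, Gzma, Gzmb, Itgax, Flt3, Xcr1, Zbtb46 and Mpo) were chosen after their values were seen. Members and lists were chosen with earlier results of these data known.

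Alternatives were scaling by general macrophage markers, by library size alone, by upper quartiles or by size factors of DESeq2 1.42.0, other low-count filters, the DESeq2 Wald test, limma-voom with quality weights (limma 3.58.1), the replicate block, the fit without its robust option, each library left out, mitochondrial and haemoglobin rows removed, and offsets for length and GC. Added after seeing the data were offsets for the longest transcript and removal of both haemoglobin-rich libraries.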

Additional observations from a re-analysis of the deposited data

How the results depend on the processing

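Of 860 values, those of 43 genes (41 named by the rule, Cd74 and Ctla2b) under 20 alternatives, 760 kept their direction and their side of the threshold, 66 lost the threshold, 17 gained it and 17 changed sign. No gene that passed the test changed sign. The sign changes were in genes that passed neither before nor after. Ctsb became 0.0036 with both haemoglobin-rich libraries left out, Ctsd -0.076 with scaling by macrophage markers, and Ctsh 0.016 with offsets for length and GC. Ctsk became 0.0024 with library size alone, 0.13 and 0.18 with offsets for length and GC and for the longest transcript, 0.28 without both haemoglobin-rich libraries, 0.0057 without control replicate 2 and 0.22 without Sms_OE replicate 3, within a range of -0.28 to 0.22 with each library left out. Ctso became 0.0050 with DESeq2 size factors, 0.019 with upper quartiles, 0.057 with library size alone, 0.014 with the CPM filter, 0.046 with offsets for the longest transcript, 0.064 without both haemoglobin-rich libraries, 0.063 without control replicate 3 and 0.051 without Sms_OE replicate 2, within -0.11 to 0.063 with each library left out. The number of cathepsins higher was 1, and 2 with offsets for the longest transcript or with the replicate block, where Ctse passed. The number lower was 2 (Ctsz and Ctss, or Ctsz and Ctsa with offsets of either kind). It was 3 with no low-count filter, the DESeq2 Wald test, limma-voom, the replicate block or mitochondrial and haemoglobin rows removed, 4 with scaling by macrophage markers, and 1 with both haemoglobin-rich libraries left out. Leaving out each library in turn gave 1 to 3 lower and 1 higher, the 1 lower without Sms_OE replicate 3. Over all genes, 2293 were higher and 2615 lower. Scaling by macrophage markers gave 1276 higher, leaving out both haemoglobin-rich libraries 690 higher and 694 lower, and leaving out each library 1366 to 2015 higher and 1684 to 2473 lower, the lowest of both without control replicate 2. The share of calls that were higher was 46.7%, against 58.4% with library size alone and 25.2% with macrophage scaling. The cause of these shifts was not tested, except that fewer samples were used where libraries were left out.

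The labels give both groups the same replicate numbers but do not say whether these mark a pairing. Correlations of deviations were 0.0646, 0.0196 and -0.00754 between same-numbered libraries, and -0.0656 to 0.0440 between the others. With 3 libraries per group, these values cannot decide whether a pairing existed. With the replicate block, 2 cathepsins were higher and 3 lower, and 2117 genes were higher and 2415 lower over all. Not every library correlated best with its own number. Counts of 150 to 340 limit Ctsk, whose interval spans changes of -0.68 to 0.56.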
